A study of Mus musculus with 16 samples.

Results

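The calcium- and calmodulin-dependent protein kinases and the calcineurin subunits that signal to MEF2 were represented by 10 genes in expression arrays of the mouse hippocampus. They were chosen by gene name, with earlier results of these data known. Every probe of each was taken: *Camk2a*, *Camk2b*, *Camk2d*, *Camk2g*, *Camk4*, *Camkk2*, *Ppp3ca*, *Ppp3cb*, *Ppp3r1* and *Rcan2*. Together they held 21 of the 25697 probes, and 10 of the 17567 genes that could be named. *Rcan2* stood in the deposited table under its older name *Dscr1l1*. Hippocampal RNA of 16 mice was hybridized to 1 array each, in 4 groups of 4: WT at postnatal day 1 (P1), *Mef2c*-het at P1, WT at postnatal day 30 (P30) and *Mef2c*-het at P30. The *Mef2c*-het mice, which the labels call KO, carry a conventional allele of *Mef2c* without exon 2 beside a WT allele, in all cells and on the C57BL/6J background, and the WT mice are their littermates. None of the groups was treated with a drug. Sex, litter and chip are not among the labels. Any effect of these cannot be told apart from the spread between mice or from a difference between the groups. The p-values are set against the spread between mice within groups, and do not cover such an effect where it differs between groups.

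These proteins turn a rise in neuronal calcium into phosphorylation and dephosphorylation. Calcium-loaded calmodulin opens the autoinhibited kinase CaMKII, whose alpha and beta subunits (*Camk2a*, *Camk2b*) are abundant at excitatory synapses of the forebrain and are required for normal synaptic plasticity, while the delta and gamma subunits (*Camk2d*, *Camk2g*) are found in many tissues. Calmodulin also activates CaMKK2, which phosphorylates and activates CaMKIV (*Camk4*), a largely nuclear kinase that acts on CREB. CaM kinases phosphorylate class IIa histone deacetylases, which then leave MEF2 and the nucleus. Calcineurin is the calmodulin-dependent phosphatase, made of a catalytic A subunit (*Ppp3ca*, *Ppp3cb*) and a calcium-binding B subunit (*Ppp3r1*). It dephosphorylates NFAT and MEF2, and RCAN2 (*Rcan2*) binds it and restrains it.

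Of the 21 probes, 14 probes of 9 genes were detected on all 16 arrays, meaning that the signal exceeded that of the control probes with a detection p under 0.05. The only *Camk4* probe was detected on 1 array of 16 and could not be tested, so the level of *Camk4* RNA is not known. 5 further probes, of *Camk2a*, *Camk2d* and *Rcan2*, were detected on 0 to 3 arrays and were not tested either. Together with *Camk4* these 6 probes had intensities between 108.4 and 195.5, and the lowest intensity in the whole table was 92.8. *Camk2a*, *Camk2d* and *Rcan2* had other probes detected on all 16 arrays, so a probe at background does not show that its gene is. 1 more *Ppp3ca* probe (ILMN_1227899) was detected on 7 arrays, all at P30. It passed the filter only through that age, so no test of its change with age is given and it is left out of every count. The level of 1 probe cannot be set against that of another, because probes differ in how well they bind. All values below are therefore changes within a probe. In bulk tissue, fewer cells of a type and less RNA per cell cannot be told apart.

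Of the 16 arrays, 5 stood apart within their ages: WT replicates 6 and 7 and *Mef2c*-het replicate 7 at P30, and replicate 8 of both genotypes at P1. The 5th percentile of their intensities was 140.0 to 161.4, against 105.8 to 130.8 on the other 11, and they had 12638 to 13290 detected probes against 13059 to 14150. With these clusters as a block, again no member probe passed adjustment between the genotypes at either age. Arrays of 1 age correlated at 0.983 or higher over all probes against 0.918 to 0.943 between the ages. The median number of beads behind a probe was 36 to 39, and the bead-to-bead standard error of the 14 probes was 1.88 to 11.8% of the signal, with a median of 4.06%. The highest such errors belonged to the *Ppp3ca* probe ILMN_2611431. The targeted gene was a weak check of the labels: 2 of the 3 *Mef2c* probes could be tested, and at P30 their log2 fold changes in *Mef2c*-het over WT were -0.29 and -0.24, with overlapping groups and exact permutation p = 0.200 and 0.371. At P1 they were 0.07 and -0.01. Where on the transcript these probes bind was not used here, and a probe outside exon 2 does not check the deletion.

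Several of the genes share a chromosome. *Camk2b* (chr11:5969629-6066357) and *Ppp3r1* (chr11:17159298-17200380) lie on chromosome 11, *Ppp3ca* (chr3:136669714-136937727) and *Camk2d* (chr3:126595487-126846326) on chromosome 3, and *Ppp3cb* (chr14:20499364-20546573) and *Camk2g* (chr14:20734873-20794157) on chromosome 14. *Camkk2* lies at chr5:122718380-122779522 and *Rcan2* at chr17:43801352-44039516. All coordinates are those of GRCm38.p6 in RefSeq.

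Promoter sequence from RefSeq was at hand for 6 of the 10 genes. The 250 bases before the first base of the gene are printed for the 3 calcineurin genes among them, because these 3 genes changed to different degrees between the ages. Capitals mark the SP1 box (GGGCGG, on either strand) and the short CRE (TGACG, on either strand).
Ppp3r1, chr11:17159048-17159297, + strand: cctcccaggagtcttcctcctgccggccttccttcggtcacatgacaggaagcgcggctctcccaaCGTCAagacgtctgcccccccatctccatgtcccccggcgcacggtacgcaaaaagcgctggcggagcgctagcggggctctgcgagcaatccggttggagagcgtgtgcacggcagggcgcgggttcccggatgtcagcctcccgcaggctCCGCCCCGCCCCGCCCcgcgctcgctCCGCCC
Ppp3cb, chr14:20546574-20546823, - strand: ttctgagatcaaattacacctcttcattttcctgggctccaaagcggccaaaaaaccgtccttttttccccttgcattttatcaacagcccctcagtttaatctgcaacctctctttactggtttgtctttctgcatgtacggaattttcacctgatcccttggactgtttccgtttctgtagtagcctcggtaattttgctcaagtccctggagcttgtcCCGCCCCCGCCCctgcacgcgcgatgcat
Rcan2, chr17:43801102-43801351, + strand: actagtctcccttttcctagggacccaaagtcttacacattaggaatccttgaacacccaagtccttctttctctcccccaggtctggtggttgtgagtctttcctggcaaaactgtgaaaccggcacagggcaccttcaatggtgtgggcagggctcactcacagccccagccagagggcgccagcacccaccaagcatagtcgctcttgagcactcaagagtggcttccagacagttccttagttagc
The *Ppp3r1* window held 4 SP1 boxes, all on the opposite strand, and 1 short CRE 184 bases before the start. The *Ppp3cb* window held 2 SP1 boxes and the *Rcan2* window none. Over all 8 windows of the 6 genes, of which 3 are of *Rcan2*, 5 held an SP1 box and 1 the short CRE. Of 27025 mouse promoters of the same length, counted with 1 window per gene, 32.9% held an SP1 box and 17.9% the short CRE. The 2 counts thus differ in how genes with several windows enter. The MEF2 site (CTA and TAG with any 4 bases between them) was in 0 of the 8 windows and in 3.23% of all promoters, the full CRE TGACGTCA, which contains the short one, in 0 and 1.62%, and the TATA box TATAAA in 0 and 13%. A match or its absence describes these letters alone and says nothing of binding.

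Between P1 and P30 the family rose in the WT hippocampus, and by very unequal amounts. *Camk2a* rose 15.2-fold and 17.9-fold by its 2 probes, the calcineurin B subunit *Ppp3r1* 3.93-fold and the catalytic subunit *Ppp3ca* 3.39-fold and 2.20-fold. *Rcan2* and *Camk2b* rose about as much as each other, by 1.97-fold and 1.92-fold for *Rcan2* and 1.92-fold for *Camk2b*. *Camkk2*, *Camk2g*, *Ppp3cb* and *Camk2d* rose by less. Of the 14 probes, 13 probes of 9 genes were higher at P30 with an adjusted p under 0.05 in limma, and none was lower. Among all 14777 probes tested, 59.7% passed that threshold, 28.0% as higher and 31.7% as lower. For the same 13 probes the 4 P30 arrays all lay above the 4 P1 arrays, which held for 25.3% of all probes. The median log2 fold change of the 14 probes was 0.94, and that of all probes was -0.03. A called rise of more than 1 on the log2 scale was found for 5 of the 14 probes, of 3 genes, and for 6.63% of all probes.

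**Figure D1:**
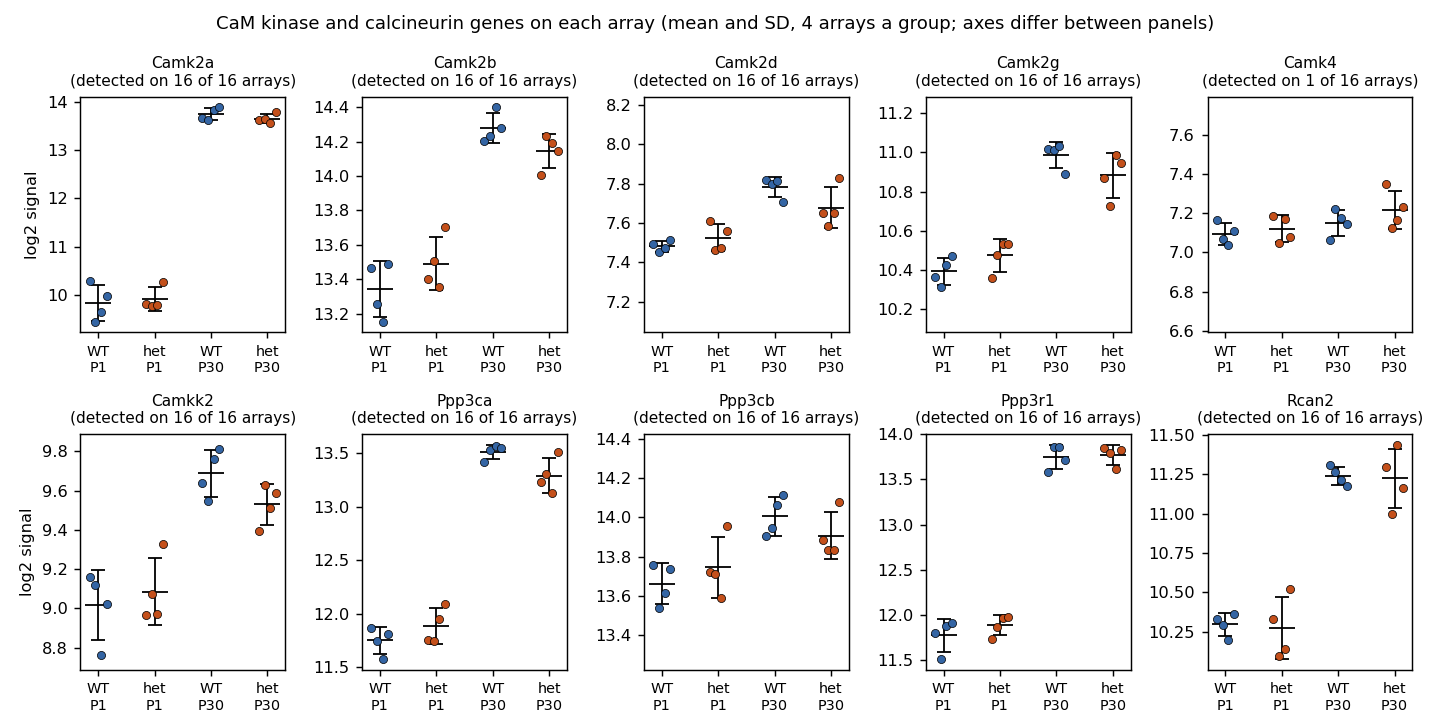
Log2 signal (quantile-normalized over the 16 arrays) of the 10 genes on each array, 1 probe per gene, the tested probe of highest mean signal or, for *Camk4*, its only probe. Points are arrays, bars are the mean and SD of 4 arrays, and each panel has its own axis; *Camk2a*, *Ppp3ca* and *Ppp3r1* stand farthest apart between the ages, and *Camk4* was detected on 1 of 16 arrays.

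Among the CaMKII subunits, the alpha subunit stood apart. On probe ILMN_2596479 the log2 signals of *Camk2a* in WT were 10.28, 9.44, 9.64 and 9.98 at P1 and 13.67, 13.62, 13.85 and 13.89 at P30. The lowest P30 array was more than 3 log2 units above the highest P1 array, and the change was 3.93 (SE 0.15, limma adjusted p = 1.83e-12). On the dimmer probe ILMN_2677393 the signals were 8.09, 7.60, 7.79 and 8.03 at P1 and 11.94, 11.94, 12.16 and 12.12 at P30. Its change was 4.16 (SE 0.13), and the intervals of the 2 probes overlapped. The background that remains in a raw intensity shrinks the fold of a dim probe: after a background correction (normexp) the change of ILMN_2677393 was 5.21, and that of ILMN_2596479 was 4.13.

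The beta subunit started from a probe that was already bright at P1. The log2 signals of *Camk2b* in WT were 13.46, 13.26, 13.15 and 13.49 at P1 and 14.20, 14.24, 14.40 and 14.28 at P30, a change of 0.94 (SE 0.09, limma adjusted p = 1.39e-07). The groups did not overlap. On each array the signal of ILMN_2596479 of *Camk2a* minus the *Camk2b* signal shows the change of balance between these probes. The mean of this difference was 2.99 higher at P30 than at P1 in WT and 3.10 higher in *Mef2c*-het mice. No P1 array reached any P30 array. ILMN_2677393 of *Camk2a*, which rose by 4.16 in WT and 3.67 in *Mef2c*-het mice, was not used here. The same comparison of ILMN_2596479 with *Camk2d* gave 3.62 and 3.60, and with ILMN_2765196 of *Camk2g* 3.33 and 3.35. These differences are given as values, with no test.

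The probes of the delta and gamma subunits changed less in WT than those of the alpha and beta subunits. *Camk2d* had log2 signals of 7.49, 7.45, 7.47 and 7.52 at P1 and 7.82, 7.80, 7.81 and 7.71 at P30 in WT, a change of 0.30 (SE 0.06, limma adjusted p = 0.000308). This is a dim probe, and after background correction the change was 0.78. With the replicate number of the labels as a block, the adjusted p was 0.0549. For *Camk2g* the 2 detected probes gave different answers. ILMN_2765196 rose by 0.59 (SE 0.07, limma adjusted p = 8.3e-07) with no overlap. On ILMN_3135323 the signals were 7.78, 7.92, 7.85 and 7.66 at P1 and 8.01, 7.98, 7.66 and 7.62 at P30, the 95% interval of the change was -0.22 to 0.24, and the limma adjusted p was 0.932. ILMN_3135323 is also a dim probe, with WT intensities of 204.4 to 238.0 at P1, against 1236.1 to 1483.3 on ILMN_2765196. Under the other settings the WT change of ILMN_3135323 lay between -0.0283 and 0.166. The table assigns the 2 probes to different transcript records of *Camk2g*. Why they differ was not tested.

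Upstream of CaMKIV, the kinase *Camkk2* rose on both of its probes in WT. ILMN_1256263 had log2 signals of 8.65, 8.47, 8.31 and 8.67 at P1 and 9.05, 9.11, 9.24 and 9.55 at P30, and its change was 0.71 (SE 0.14, limma adjusted p = 0.000336). The change of ILMN_2846803 was 0.67 (SE 0.10). The groups did not overlap on either probe.

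The calcineurin genes divided as the CaMKII genes did, with 1 isoform far more changed than its close relative. The regulatory subunit *Ppp3r1* had log2 signals of 11.80, 11.51, 11.88 and 11.91 at P1 and 13.58, 13.85, 13.85 and 13.72 at P30 in WT, a change of 1.97 (SE 0.09, limma adjusted p = 2.21e-11). For *Ppp3ca*, the alpha isoform of the catalytic subunit, ILMN_2971286 read 11.87, 11.75, 11.58 and 11.81 at P1 and 13.42, 13.53, 13.56 and 13.54 at P30. Its change was 1.76 (SE 0.09, limma adjusted p = 9.29e-11). The second *Ppp3ca* probe, ILMN_2611431, rose by 1.14 (SE 0.10), and its 95% interval of 0.93 to 1.35 did not reach the interval of 1.56 to 1.96 of the first. The dimmest, ILMN_1227899, was not above background on any P1 array and was detected on all 4 WT arrays at P30. It passed the filter only through P30, so no size of its change is given.

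*Ppp3cb*, the beta isoform of the catalytic subunit, rose by 0.34 (SE 0.08, limma adjusted p = 0.00221) in WT, from 13.76, 13.54, 13.62 and 13.73 at P1 to 13.90, 13.94, 14.06 and 14.11 at P30. The groups did not overlap, though the highest P1 array came close to the lowest P30 array. For *Ppp3ca* probe ILMN_2971286, the signal minus that of *Ppp3cb* increased with age by a mean of 1.42 in WT and 1.24 in *Mef2c*-het mice. This difference was taken on each array, again with no overlap and no test. ILMN_2611431 of *Ppp3ca*, which rose by 1.14 in WT and 1.31 in *Mef2c*-het mice, was not used for it. *Rcan2*, the calcineurin regulator, rose by 0.98 (SE 0.09) on ILMN_1212612 and by 0.94 (SE 0.10) on ILMN_3106592. On the latter the signals were 10.33, 10.29, 10.20 and 10.37 at P1 and 11.31, 11.26, 11.22 and 11.18 at P30, so the rise was larger than the spread within either age.

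Ordered by the size of the WT change, the 2 *Camk2a* probes came first and their intervals did not reach that of *Ppp3r1*. *Ppp3r1* and ILMN_2971286 of *Ppp3ca* came next with overlapping intervals, and both lay above all the remaining probes. From ILMN_2611431 of *Ppp3ca* down to ILMN_3135323 of *Camk2g*, each interval overlapped that of the next. An exact two-sided permutation test gave p = 0.0286 for each of the 13 probes that rose, the smallest value that 4 against 4 arrays allow, and p = 0.943 for ILMN_3135323.

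**Figure D2:**
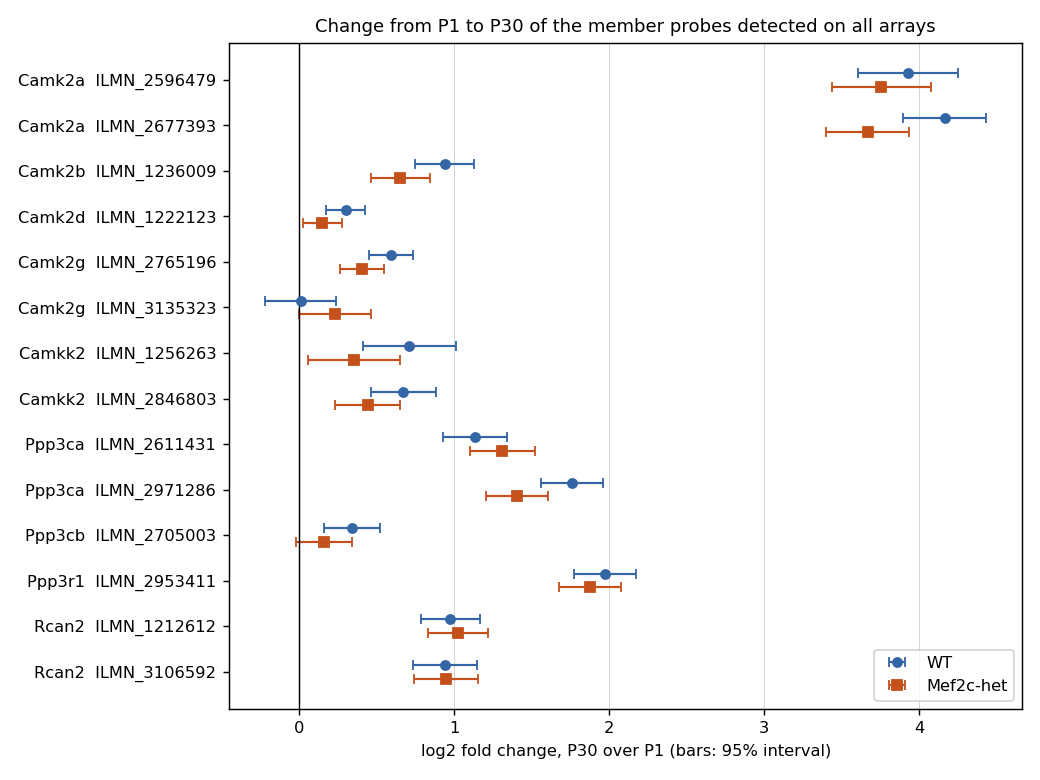
Log2 fold change from P1 to P30 of each of the 14 probes detected on all arrays, in WT (circles) and *Mef2c*-het mice (squares), with 95% intervals from limma on all 16 arrays. The *Camk2a* probes lie between 3.67 and 4.16 in both genotypes, and ILMN_3135323 of *Camk2g* lies at 0.01 in WT.

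In *Mef2c*-het mice, 8 of the 9 genes rose. Of the 14 probes, 12 were higher at P30 with an adjusted p under 0.05 in limma, against 26.9% of all probes as higher and 58.3% in either direction. The P30 and P1 arrays did not overlap for 10 of the 14, with the P30 arrays higher, as for 24.3% of all probes. The median log2 fold change was 0.80. A called change above 1 was found for 6 probes of 4 genes and for 6.25% of all probes. *Camk2a* rose by 3.75 (SE 0.15) on ILMN_2596479, from 9.81, 9.76, 9.78 and 10.27 at P1 to 13.63, 13.65, 13.58 and 13.79 at P30, and by 3.67 (SE 0.13) on ILMN_2677393. *Ppp3r1* rose by 1.88 (SE 0.09), from 11.74, 11.87, 11.97 and 11.98 to 13.84, 13.79, 13.61 and 13.83. *Ppp3ca* rose by 1.41 (SE 0.09) on ILMN_2971286 and by 1.31 (SE 0.10) on ILMN_2611431, *Rcan2* by 1.03 and 0.95, and *Camk2b* by 0.65 (SE 0.09).

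The probes with small changes were less settled in the *Mef2c*-het mice. *Ppp3cb* (0.16, limma adjusted p = 0.114) and ILMN_3135323 of *Camk2g* (0.23, limma adjusted p = 0.0764) did not pass. *Ppp3cb* did pass without *Mef2c*-het P1 replicate 8 (limma adjusted p = 0.0221), and ILMN_3135323 without *Mef2c*-het P30 replicate 7 (0.0134). *Camk2d* passed at 0.15 (limma adjusted p = 0.0359) although its groups overlapped. Its adjusted p was above 0.05 when *Mef2c*-het P1 replicate 2 (0.100), P1 replicate 4 (0.0899) or P30 replicate 7 (0.134) was left out. ILMN_1256263 of *Camkk2* passed at 0.36 (limma adjusted p = 0.0385), also with overlapping groups. It did not pass without any 1 of *Mef2c*-het P1 replicates 1, 2 and 4 or P30 replicates 5 and 7, with adjusted p between 0.0620 and 0.121. The other *Camkk2* probe rose by 0.44 (SE 0.10, limma adjusted p = 0.000991) with no overlap.

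At P30, no probe of the family differed between *Mef2c*-het and WT mice with an adjusted p under 0.05 in limma, and 1 of 13413 probes did, or 0.00746%. No probe of the family separated the 4 *Mef2c*-het from the 4 WT arrays, which 1.75% of all probes did. At an unadjusted p under 0.05 there were 2 of the 14 probes, and 2.36% of all probes. The count over all probes leaned on single arrays. It was 316 of 13413 with every array, 155 of 13231 without *Mef2c*-het replicate 6 and 1367 of 13257 without *Mef2c*-het replicate 7. The smallest of the 14 log2 fold changes was -0.33 and the largest 0.18. Their median was -0.10, beside -0.01 over all probes, and 10 of them were negative. With arrays scaled to a common median these medians were -0.05 and 0.01, and 9 were negative. The 95% intervals of the 14 probes reached from -0.63 (0.648-fold, ILMN_1256263 of *Camkk2*) to 0.41 (1.33-fold, ILMN_2611431 of *Ppp3ca*). Differences of such a size are thus not excluded for those probes. Only changes as large as those of *Camk2a* or *Ppp3r1* between the ages lay outside all of the intervals.

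The 2 probes at the unadjusted threshold were of *Camkk2* and *Ppp3ca*. On ILMN_1256263 of *Camkk2* the log2 signals, normalized within P30, were 9.01, 9.07, 9.19 and 9.50 in WT and 8.73, 8.97, 8.64 and 9.10 in *Mef2c*-het mice. The *Mef2c*-het arrays were the lower group except for replicate 7, which lay above 2 WT arrays, and the difference was -0.33 (SE 0.13, limma adjusted p = 0.976, exact permutation p = 0.0857). The second probe of this kinase differed by -0.16 (SE 0.08). On ILMN_2971286 of *Ppp3ca* the signals were 13.40, 13.51, 13.55 and 13.53 in WT and 13.21, 13.29, 13.11 and 13.49 in *Mef2c*-het mice, a difference of -0.22 (SE 0.09, limma adjusted p = 0.976, exact permutation p = 0.0571). The second *Ppp3ca* probe went the other way, at 0.18 (SE 0.10), so the 2 probes of this gene give no common direction.

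*Camk2a* at P30 differed by -0.10 (SE 0.08) and -0.25 (SE 0.12) on its 2 probes, with exact permutation p = 0.229 and 0.114. *Camk2b* had 14.15, 14.17, 14.30 and 14.21 in WT and 13.99, 14.17, 14.14 and 14.11 in *Mef2c*-het mice. Its difference was -0.11 (SE 0.07, exact permutation p = 0.0857), and the groups overlapped. *Ppp3r1* (0.02), *Ppp3cb* (-0.09) and the *Rcan2* probes (0.05 and -0.02) stood close to 0, and each of their 95% intervals lay within -0.26 and 0.24.

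**Figure D3:**
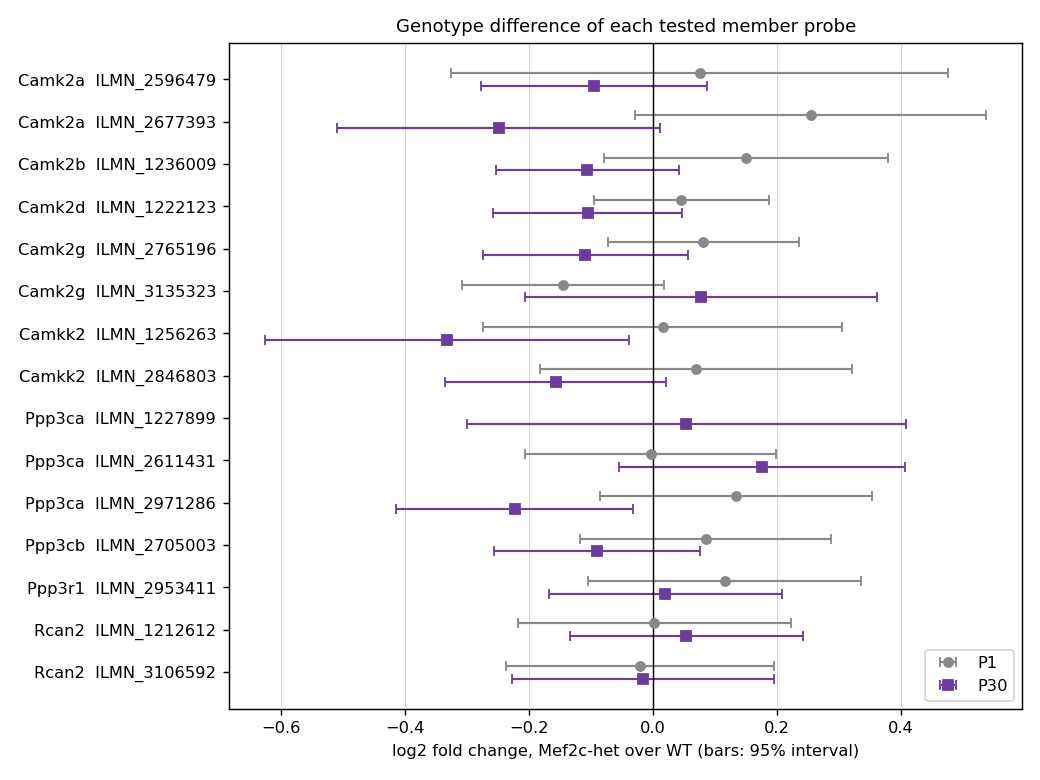
Log2 fold change of *Mef2c*-het over WT mice for each tested probe at P1 (circles) and P30 (squares), with 95% intervals from limma within each age. At P30 the points run from -0.33 to 0.18 and at P1 from -0.14 to 0.25, and no probe passed adjustment at either age.

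At P1, no probe of the family passed adjustment, and neither did any of the 13566 probes tested (0%). At an unadjusted p under 0.05 there were 0 of the 14 probes and 220 of all, or 1.62%. None of the 14 separated the genotypes, against 1.29% of all probes. The differences lay between -0.14 and 0.25 (median 0.07), and 11 of the 14 were positive. That tally leaned on single arrays: it was 7 of 14 without *Mef2c*-het replicate 8, whose *Camk2a*, *Camk2b*, *Camkk2*, *Ppp3ca* and *Ppp3cb* signals were the highest of its group, and 8 of 14 without WT replicate 4. The largest difference was 0.25 (SE 0.13, exact permutation p = 0.200) on ILMN_2677393 of *Camk2a*, with 8.12, 7.62, 7.80 and 8.06 in WT and 8.14, 8.03, 8.04 and 8.42 in *Mef2c*-het mice.

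The difference of the genotype effect between P30 and P1 was tested on all 16 arrays. No probe of the family and none of all 14777 probes (0%) passed adjustment in limma, with a lowest adjusted p of 0.998 in the family. At an unadjusted p under 0.05 there were 3 of the 14 probes and 2.96% of all. These were ILMN_2677393 of *Camk2a* (-0.50, SE 0.18), ILMN_2971286 of *Ppp3ca* (-0.36, SE 0.13) and *Camk2b* (-0.29, SE 0.13), each with a smaller rise from P1 to P30 in *Mef2c*-het mice. The other *Camk2a* probe gave -0.17 (SE 0.21), and the other *Ppp3ca* probe 0.18 (SE 0.14).

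Other genes of calcium and calmodulin signalling changed with age in both directions. Of 57 listed genes 47 could be tested, each by its brightest tested probe, but 6 of these passed the filter through 1 age alone and are not counted. Of the remaining 41 in WT, 19 were higher at P30, 8 were lower and 14 did not pass, beside 28.0% higher and 31.7% lower among all probes. Their median was 0.18. In *Mef2c*-het mice 18 were higher and 8 lower, and between the genotypes none of those tested passed adjustment at either age. Among the genes of calcium entry and release, 3 were measured at both ages, and all 3 were higher in WT and 2 of them in *Mef2c*-het mice. They included *Itpr1*, the receptor that releases calcium from internal stores (2.09, SE 0.12), and *Stim1*, the sensor of those stores (1.06, SE 0.07). The NMDA receptor genes *Grin1*, *Grin2a* and *Grin2b* passed the filter only through P30. Among the 4 tested genes of calmodulin and its binding proteins, *Nrgn* (2.56, SE 0.13) and *Calm3* (0.48, SE 0.08) were higher. *Gap43*, a calmodulin-binding protein of growing axons, was lower (-2.18, SE 0.38).

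Of the 17 tested other CaM kinases and their regulators, 10 were higher and 4 lower. The largest change was that of *Camkk1*, the other CaM kinase kinase, at 2.37 (SE 0.10), from a mean of 8.53 to one of 10.90. It was followed by *Camk2n1*, an inhibitor of CaMKII (1.67, SE 0.10), and *Ppm1e*, a phosphatase that acts on CaM kinases (1.50, SE 0.07). Of 5 other calcineurin-related genes only *Fkbp1a*, the FK506-binding protein, was higher (0.71, SE 0.07) and only *Rcan3*, a relative of *Rcan2*, was lower (-0.63, SE 0.06). Of the 12 targets in the nucleus measured at both ages, 3 were higher, 2 were lower and 7 did not pass, a share near that of all probes for the higher ones. *Hdac4*, a class IIa deacetylase that binds MEF2, was higher (0.96, SE 0.08), while *Hdac7* of the same class (-1.03, SE 0.10) and *Nfatc4*, a substrate of calcineurin (-1.19, SE 0.10), were lower. The brightest *Mef2c* probe changed by 0.19 (SE 0.17, limma adjusted p = 0.350), and *Mef2a* and *Mef2d* did not pass in WT either. *Mef2b* passed the filter only through P1.

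**Figure D4:**
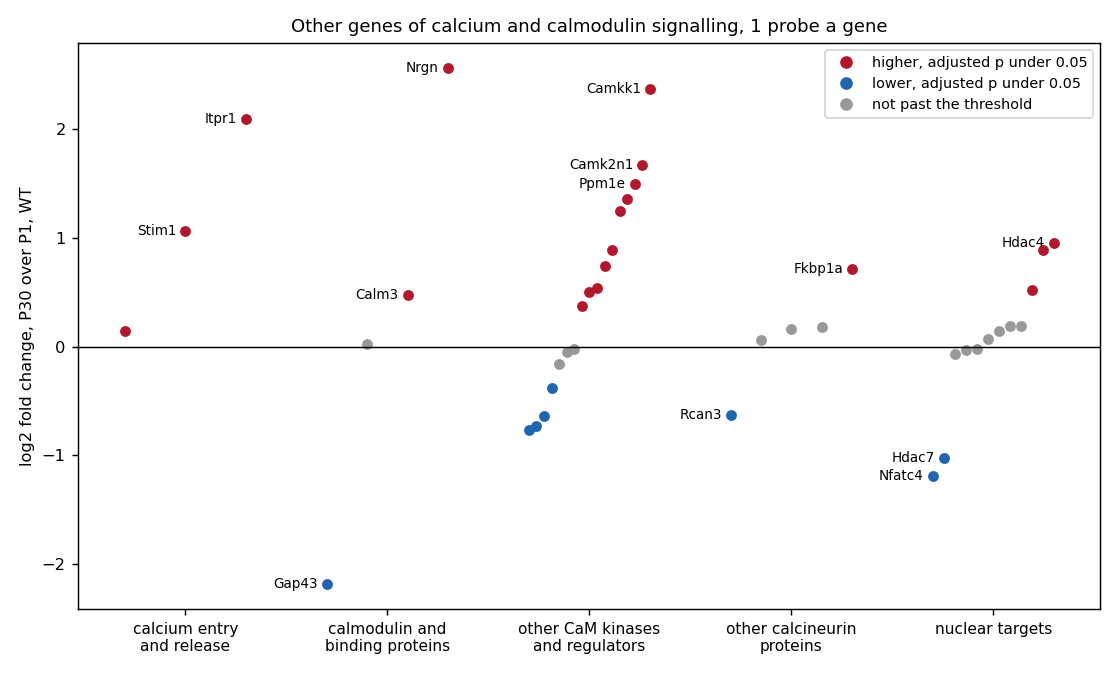
Log2 fold change from P1 to P30 in WT of the 41 other genes of calcium and calmodulin signalling that were measured at both ages, 1 probe per gene, in 5 lists; named points are changes past adjustment whose values the text gives. The 3 calcium entry and release genes lie above 0, and the nuclear targets lie on both sides of it.

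The signals of cell type markers moved with age as well. The summed signal of 6 markers of dividing and newborn cells fell from 16485 to 17902 in WT at P1 to 1224 to 1341 at P30. That of 9 oligodendrocyte markers rose from 8266 to 9715 up to 100586 to 113192. Of these markers, 4 of the 6 passed the filter only through P1 and 3 of the 9 only through P30. The other 2 were both lower in WT and the other 6 all higher, with an adjusted p under 0.05 in limma. The 7 markers of hippocampal excitatory neurons, which include *Nrgn*, summed to 5032 to 6784 at P1 and to 24783 to 28425 at P30, and of the 6 measured at both ages 4 were higher, 1 was lower and 1 did not pass. The 7 general neuron markers summed to 27033 to 31049 and to 40721 to 44452, although of 5 tested 3 were higher and 2 lower, and the probes of *Snap25* and *Nefl* among them were not detected on any array. Of the markers measured at both ages, all 5 of interneurons, 7 of 9 of microglia and 6 of 7 of astrocytes were higher in WT. Endothelial markers went both ways, with 2 of 6 higher and 3 lower, and 2 of 4 blood markers were lower. Thalamus and striatum each had 5 such markers, 3 higher and 1 lower. Among all probes 28.0% were higher and 31.7% lower. The part of these shifts in the rises above was not tested. Summed signals of 5 choroid plexus markers ranged from 1314 to 22304 between WT arrays at P30. Between *Mef2c*-het arrays at P1 they ranged from 2154 to 26307. Whether this spread bears on the values above was not tested. Between the genotypes none of the tested markers passed adjustment at either age.

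Over the 16 arrays, the genes that followed ILMN_2677393 of *Camk2a* most closely were *Lgi3*, *Gpr37l1*, *Zfp365*, *Lynx1* and *Sptb*. Likeness was the root mean square difference of log2 signals after each probe was centred on its mean, which was 0.15 for *Lgi3* and 0.20 for *Sptb*. Their own WT changes were 4.06, 3.89, 4.21, 3.94 and 4.19. With 2 ages in the data, this likeness is mostly that of the step between them. No member fell with age in WT, so no such neighbours are given for a fall.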

How the data were processed

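Hippocampal RNA was cleaned with the miRNeasy kit, amplified to biotinylated cRNA and hybridized to Illumina MouseRef-8 v2 beadchips, 1 mouse per array. The authors deposited a table of bead intensities before normalization (mean intensity per probe) with a detection p-value for each probe and array, and with bead standard errors and bead counts, which are also deposited values. Whether a local background had been subtracted is not stated. The submitters' processing notes name lumi and limma. Here the intensities were log2-transformed and quantile-normalized over the arrays of each fit (8 arrays of an age, or all 16 for changes with age), as the methods describe. A probe was kept if at least 4 arrays of the fit detected it (p under 0.05): 13413 at P30, 13566 at P1 and 14777 together. Groups were compared with limma 3.58.1 in R 4.3.3 (lmFit and eBayes), two-sided, and p was adjusted by Benjamini-Hochberg across every probe tested. For single probes an exact permutation test enumerated all 35 splits of 8 arrays. Log2 signals are from the 16-array normalization, except in genotype comparisons. Probes were named through the RefSeq gene table of GRCm38.p6 (25376 of 25697 matched). Replicates are separate mice. A probe's genes were named by rule: every member probe, *Mef2c*, and from each of 5 pathway lists the up to 3 largest changes past adjustment in WT with age. List genes whose probe was detected on under 4 of the 8 arrays of an age were left out of the counts by age, a rule added after seeing the data. The members, lists and tests were chosen with earlier results of these data known. Scripts were tested on simulated data. The number of arrays limits the precision. The other settings were scaling to a common median, cyclic loess, normexp by detection p, no filter, a stricter detection filter within and across the ages, trended robust variances, blocks for replicate number or array cluster, and leaving out each array.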

Additional observations from a re-analysis of the deposited data

Results flagged for a closer look

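In 3 of 60 groups of 4 arrays examined, 1 array stood apart from the other 3, with a gap to the nearest array that took up more of the group's range than Dixon's 95% critical value. Chance gives about 3 in 60. In *Mef2c*-het mice at P1, replicate 8 had the highest *Camk2a* signal on ILMN_2596479, at 10.27 against at most 9.81 (gap over range 0.904). In WT mice at P30, replicate 7 had the lowest *Camk2d* signal on ILMN_1222123, at 7.71 against at least 7.80 (0.832), and also the lowest *Camk2g* signal on ILMN_2765196, at 10.89 against at least 11.01 (0.885). The 2 arrays belong to the smaller clusters of arrays of their ages.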

How the results depend on the processing

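Of the 14 probes detected on all arrays, the number past adjustment was 0 for the genotype at either age and for the difference between the ages under each of the 9 other settings and with each array left out. For the rise with age it was 13 in WT (12 to 13 under the other settings, 13 with any 1 array left out) and 12 in *Mef2c*-het mice (10 to 14, and 10 to 13). Of the calls, *Camk2d* was lost in *Mef2c*-het mice with scaling to a common median (limma adjusted p = 0.138), the replicate block (0.260) and the array clusters as a block (0.0543). ILMN_1256263 of *Camkk2* was lost there without the probe filter (0.0629) and with the replicate block (0.0797). *Ppp3cb* passed there under cyclic loess (0.00775) and the cluster block (0.0421), and ILMN_3135323 of *Camk2g* under the same 2 settings (0.0497 and 0.00143). The causes were not tested.

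Changes of sign were confined to values near 0 that no setting called. At P30, *Mef2c*-het over WT, ILMN_3106592 of *Rcan2* became 0.0236 with median scaling, 0.000539 under cyclic loess and 0.0855 with the replicate block. ILMN_1227899 of *Ppp3ca* became -0.0206 with the replicate block and -0.0413 with the cluster block, *Ppp3r1* -0.0491 with the replicate block, and ILMN_3135323 of *Camk2g* -0.0104 with the cluster block. At P1, ILMN_2611431 of *Ppp3ca* became 0.000431 with median scaling and 0.0304 with the replicate block, and ILMN_1212612 of *Rcan2* -0.00374 under cyclic loess. The replicate block also gave -0.0606 and -0.0125 for the *Camkk2* probes and 0.00391 for ILMN_3106592 of *Rcan2*. Between the ages in WT, ILMN_3135323 of *Camk2g* became -0.0283 with median scaling. In the difference between the ages, ILMN_3106592 of *Rcan2* became -0.0135 with the cluster block.

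With 1 array left out, signs changed within these ranges. At P1 these were -0.0538 to 0.221 for ILMN_2596479 of *Camk2a*, -0.101 to 0.0869 and -0.0169 to 0.119 for the *Camkk2* probes, -0.0716 to 0.0621 for ILMN_2611431 of *Ppp3ca*, and -0.0717 to 0.0730 and -0.103 to 0.0371 for the *Rcan2* probes. At P30 they were -0.00949 to 0.169 for ILMN_3135323 of *Camk2g*, -0.0937 to 0.172 for ILMN_1227899 of *Ppp3ca*, -0.0382 to 0.0725 for *Ppp3r1* and -0.0892 to 0.0618 for ILMN_3106592 of *Rcan2*. ILMN_3135323 of *Camk2g* ranged from -0.0524 to 0.0785 between the ages in WT. The difference between the ages ranged from -0.0166 to 0.121 for ILMN_1212612 of *Rcan2* and from -0.0634 to 0.0913 for ILMN_3106592. For ILMN_1227899 of *Ppp3ca* the fit gave -0.0489 to 0.227, but no P1 array detected this probe. Its P1 values are background, so this range does not measure a difference between the ages and nothing is concluded from it.

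Replicate numbers are shared by some groups, but arrays of the same number correlated from -0.52 to 0.82 in their deviations from the group means, and 4 of 16 arrays correlated best with their own number, so the numbers were not taken to pair the mice. With the number as a block, 12 of the 14 probes in WT, without *Camk2d*, and 10 in *Mef2c*-het mice were called for age and 0 for genotype.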
